A study of Mus musculus with 10 samples.

Results

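NIC-Carm1 against NIC was a comparison of 5 of the 10 RNA-seq libraries in a study of mouse mammary epithelial cells. It covered 15694 of the 16290 genes in the deposited table, namely those with a normalised read count of at least 10 in at least 2 of the 10 libraries. The study asked which genes differ when a protein arginine methyltransferase (PRMT) is overexpressed. The NIC-Carm1 group (3 libraries) carried Carm1 on top of NIC, the NIC-Prmt1 group (3 libraries) and the NIC-Prmt6 group (2 libraries) carried the PRMT gene in their names on top of NIC, and the NIC group (2 libraries) carried NIC alone. All mice were of the FVB strain, so NIC and FVB were common to every library. The labels do not spell NIC out. A widely used line of that name makes an activated form of the receptor Neu (Erbb2) and Cre recombinase from the MMTV promoter in mammary epithelium, but whether these mice were that line is not given in the sources used here. The promoter that drove the PRMT gene, the age and sex of the mice and any pooling of animals are not given in them either. Cells were released from dissected glands by enzymes and enriched by brief spins, and no marker sort is named. The labels do not say that replicates were separate animals, so each p-value measures the spread between these libraries, which may be technical.

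CARM1, also known as PRMT4, places dimethyl marks on arginines of histones, of transcriptional coactivators and of splicing factors. It is recruited to promoters and enhancers by nuclear receptors and other transcription factors, the oestrogen receptor of mammary epithelium among them, and acts there as a coactivator. Mammary epithelium is made of an inner luminal layer, which gives rise to milk-producing cells, and an outer contractile basal layer. Macrophages, mast cells, fibroblasts and vessels surround both.

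The reads recovered per library, which are the deposited values multiplied by each library's size factor, came to between 22787800 and 29225500 in NIC-Carm1 and to 29235500 and 21589300 in NIC. Replicates 2 and 3 of NIC-Carm1 were nearly identical. The chi-square of their recovered reads, divided by its degrees of freedom, was 2.65, where counting noise alone gives a value of about 1. NIC-Prmt6 replicates 1 and 2 were as close (2.41), whereas the 6 remaining same-group pairs ranged over 27.2 to 101 and pairs of a NIC-Carm1 with a NIC library over 73.1 to 153. The 2.65 is above counting noise, as repeat preparations of 1 sample can also be, so whether the close libraries are separate samples cannot be told. They entered the fit separately. Counts below are also given after both close pairs were averaged, which leaves NIC-Carm1 with n = 2 and is called averaging from here on. NIC-Carm1 replicate 1 stood apart from the other NIC-Carm1 libraries in 1303 genes by at least 2-fold, 8.3% of those tested. It held much more milk protein RNA: the casein gene Csn2 had a normalised read count of 358442 in replicate 1 and 6825 and 6751 in replicates 2 and 3, against 4732 and 2452 in NIC. Luminal epithelial genes, which define the labelled cell type, summed to 7300.2, 6222 and 6376 CPM, reads scaled to a common recovered total, in NIC-Carm1, against 11789 and 9639 CPM in NIC, and the luminal keratin gene Krt8 had 54459.7, 36003 and 36525 in the NIC-Carm1 libraries, against 101706 and 78260.3 in the NIC libraries. Epithelial RNA was therefore present in all 5 libraries, beside RNA of stromal and immune cells. In such bulk samples, fewer cells of a type and less RNA per cell cannot be told apart.

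**Figure D1:**
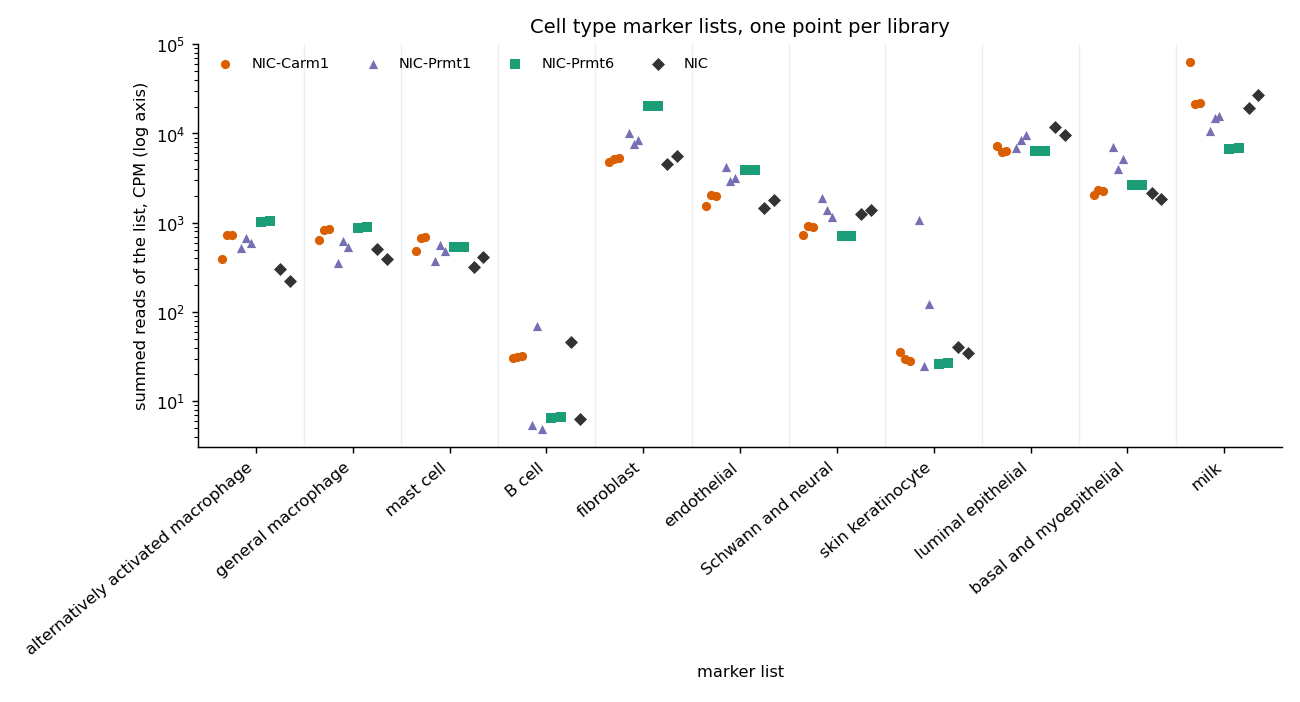
Summed reads of 11 cell type marker lists in each library, in CPM on a log axis, by group from left to right. The mast cell sums consist mostly of reads of Kit, which luminal progenitors also express. Milk genes were highest in NIC-Carm1 replicate 1 (62622 CPM), and alternatively activated macrophage genes were higher in all 3 NIC-Carm1 libraries (388, 737 and 731 CPM) than in both NIC libraries (305 and 222 CPM). The latter sums include the abundant gene Arg1, which fell.

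The targeted gene was checked before the rest. Carm1 (chromosome 9, 21546894 to 21589467, GRCm38) had a normalised read count of 2479, 2324 and 2146 in the NIC-Carm1 libraries, against 1556 and 1567 in the NIC libraries. All 3 NIC-Carm1 libraries were above both NIC libraries, with a log2 fold change of 0.57 ± 0.09 (± SE of the limma fit, here and below, with adjusted p = 0.0049). With the nearly identical libraries averaged, the adjusted p was 0.0501, which just misses the threshold of 0.05. The level was no mark of the group, since NIC-Prmt1 had 2303, 2025 and 2136 and NIC-Prmt6 2295 and 2432. NIC-Carm1 minus the mean of those groups was 0.04 ± 0.07 (adjusted p = 0.724). The sources used here do not say under which gene name transgene reads would be counted, so the group names below mean the libraries labelled so.

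Across all genes tested, 2513 differed between NIC-Carm1 and NIC (limma-trend, Benjamini-Hochberg adjusted p at most 0.05), which is 16% of the 15694. Of these, 1044 rose (6.65%) and 1469 fell (9.36%). A rise of at least 2-fold was called in 243 genes (1.55%) and a fall of that size in 338 (2.15%). With the nearly identical libraries averaged, 341 of 15566 genes passed (2.19%), 89 higher (0.572%) and 252 lower (1.62%), and each of the 341 was among the 2513 with the same direction. Falls therefore made up most calls in both fits, but upper-quartile rescaling gave 1312 rises and 1230 falls, so the balance of rises and falls depended on the scaling. Groups did not overlap in 47.9% of all genes tested, with NIC-Carm1 above NIC in 23.4% and below it in 24.5%. A total of 320 genes, 80 higher and 240 lower, kept their call in each of the 18 alternative fits. Genes are described below as having risen or fallen on the fit with all libraries, and those whose call did not survive averaging are named as such.

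**Figure D2:**
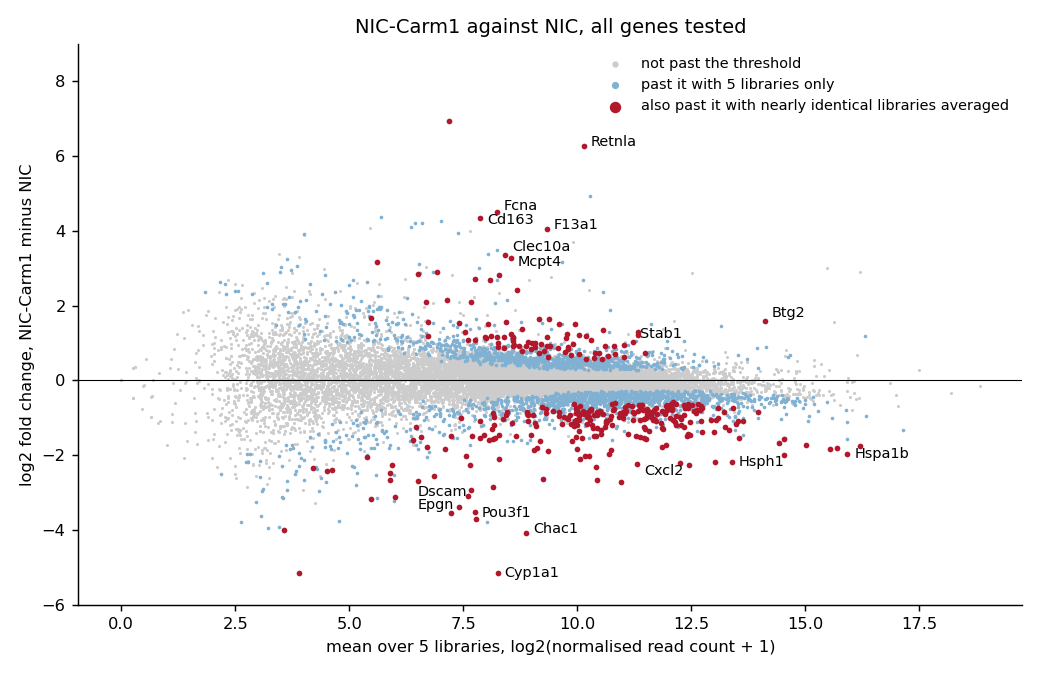
Each point is a gene tested, with its mean over the 5 libraries on the horizontal axis and its log2 fold change, NIC-Carm1 minus NIC, on the vertical axis. Genes that also passed with nearly identical libraries averaged are red (89 higher, 252 lower), and those that passed only with all libraries are blue.

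Among the rises, genes of alternatively activated macrophages stood out by size. Such macrophages clear debris and take part in tissue repair. Of 17 such genes in the table, 14 rose, Arg1 fell and 2 did not pass, with a median log2 fold change of 3.37 where the median of all genes tested was 0.0034. Averaging left 9 of the rises, and leaving out a library of either group left 12 to 15. Retnla (chromosome 16, 48842609 to 48844461), a secreted protein of these macrophages, had a normalised read count of 409, 2610.4 and 2626 in the NIC-Carm1 libraries, against 20.8 and 14.3 in the NIC libraries. Each NIC-Carm1 library was far above both NIC libraries, and replicate 1 was the lowest of its group. The log2 fold change was 6.27 ± 0.71 (adjusted p = 0.000957, and 4.63e-14 to 0.0191 over the alternatives).

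Scavenger receptors and lectins moved the same way. Cd163 (chromosome 6, 124304636 to 124330529), the receptor that takes up haemoglobin bound to haptoglobin, had 108, 516 and 516 in the NIC-Carm1 libraries, against 21.7 and 9.1 in the NIC libraries, a log2 fold change of 4.34 ± 0.62 (adjusted p = 0.00274, and 2.58e-08 to 0.0368 over the alternatives). Fcna (chromosome 2, 25624665 to 25635440), a soluble ficolin of the lectin complement pathway, had 256, 572 and 632 in the NIC-Carm1 libraries, against 27.4 and 13 in the NIC libraries, and rose by 4.51 ± 0.39. Replicate 1 was again the lowest NIC-Carm1 library of both genes and still lay above both NIC libraries. The mannose receptor gene Mrc1 had 567, 1613 and 1594 in the NIC-Carm1 libraries, against 247 and 63.7 in the NIC libraries. Its log2 fold change of 3.16 ± 0.57 passed with all libraries (adjusted p = 0.0069) but not on averaging (0.0632, and 0.000154 to 0.0632 over the alternatives). The galactose-type lectin genes Clec10a and Mgl2, which are close copies, rose by 3.37 ± 0.40 and 2.89 ± 0.36, the folate receptor gene Folr2 by 2.7 ± 0.29, the hyaluronan receptor gene Lyve1 by 2.41 ± 0.35 and the scavenger receptor gene Stab1 by 1.03 ± 0.13. These 5 passed in every alternative fit.

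Secreted products of such macrophages were also higher. F13a1 (chromosome 13, 36867178 to 37050244), which encodes the coagulation factor that crosslinks fibrin, had 425, 1322 and 1364 in the NIC-Carm1 libraries, against 61.4 and 48.1 in the NIC libraries, a log2 fold change of 4.05 ± 0.44 (adjusted p = 0.000801, and 6.08e-13 to 0.018 over the alternatives). The lowest NIC-Carm1 library had several times the highest NIC value. The chemokine genes Ccl8 and Ccl6 rose by 2.15 ± 0.26 and 2.71 ± 0.27, and Pf4, a chemokine gene that macrophages share with platelets, by 2.84 ± 0.37. Arg1, the arginine-degrading enzyme that is often used as a marker of the same state, went the other way, with 1736, 2449 and 2415 in the NIC-Carm1 libraries, against 3777 and 3386 in the NIC libraries. Its fall of 0.72 ± 0.15 (adjusted p = 0.0112, and 0.000247 to 0.091 over the alternatives) was lost on averaging (0.0573), with only the compared groups fitted (0.0523) and without NIC replicate 1 (0.091).

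Genes of macrophages in general moved less. Of 15, 3 rose and none fell, with a median log2 fold change of 0.43, and averaging left 1 rise. The one that held was the fractalkine receptor gene Cx3cr1, with 268, 231 and 241 in the NIC-Carm1 libraries, against 123 and 109 in the NIC libraries, a rise of 1.08 ± 0.16 (adjusted p = 0.00305). Without NIC-Carm1 replicate 1, 7 general macrophage genes rose, and 1 rose without NIC-Carm1 replicate 2 or 3 or NIC replicate 2. The defining surface gene Adgre1 had 289, 476 and 534 in the NIC-Carm1 libraries, against 329 and 345 in the NIC libraries, which overlapped (0.32 ± 0.26, adjusted p = 0.442). Csf1r, the receptor that macrophages need to survive, had 1851, 2981 and 3007 in the NIC-Carm1 libraries, against 1788 and 1294 in the NIC libraries, and Cd68, a lysosomal marker, had 748, 956 and 981 in the NIC-Carm1 libraries, against 723 and 599 in the NIC libraries. Neither passed (adjusted p = 0.102 and 0.114), although all NIC-Carm1 values lay above NIC. Summed over the lists, alternatively activated genes stood at 388, 737 and 731 CPM in NIC-Carm1 against 305 and 222 CPM in NIC, and general macrophage genes at 644, 825 and 846 CPM against 503 and 388 CPM. The first sums include Arg1, which fell and whose NIC counts, given above, far exceed those given for the genes that rose. How much of the rise of the first list goes with the number of macrophages was not tested.

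Genes of mast cells, the granulated cells of connective tissue, also rose. Of 10 mast cell genes, 7 rose and none fell (median log2 fold change 2.41). Averaging left 2, without NIC replicate 1 there were 2, and without NIC-Carm1 replicate 2 or 3 there were 4. The chymase gene Mcpt4 (chromosome 14, 56059744 to 56062310) had 276, 704 and 770.0 in the NIC-Carm1 libraries, against 41.6 and 70.2 in the NIC libraries, and the carboxypeptidase gene Cpa3 (chromosome 3, 20215616 to 20242209) had 248, 533 and 637 in the NIC-Carm1 libraries, against 43.5 and 84.5 in the NIC libraries. Every NIC-Carm1 library was above both NIC libraries for both proteases. Their log2 fold changes were 3.27 ± 0.49 and 2.83 ± 0.45 (adjusted p = 0.00319 and 0.00446), and both held on averaging (0.04 and 0.0483). Kit, the receptor of stem cell factor, is a mast cell marker that luminal progenitors also express. It had 11088, 12873 and 12989 in the NIC-Carm1 libraries, against 8502 and 10829 in the NIC libraries, and did not pass (adjusted p = 0.141). Most reads of the mast cell list were of Kit. Between NIC-Carm1 and NIC, skeletal muscle genes moved with these immune lists, but not in all groups. They summed to 32.2, 90.3 and 90.6 CPM in NIC-Carm1 against 20.5 and 23.2 CPM in NIC, with NIC-Carm1 replicates 2 and 3 highest. NIC-Prmt1 had 28.2, 72.3 and 81.2 CPM. NIC-Prmt6 had 24.3 and 25.5 CPM, although its sums of alternatively activated macrophage genes were the highest (1027 and 1037 CPM). Of 13 skeletal muscle genes, 2 rose and none fell (median 1.67). On averaging 0 passed (2 at an unadjusted p under 0.05), and 6 rose without NIC-Carm1 replicate 1. The part of tissue make-up in the macrophage and mast cell rises was not tested.

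**Figure D3:**
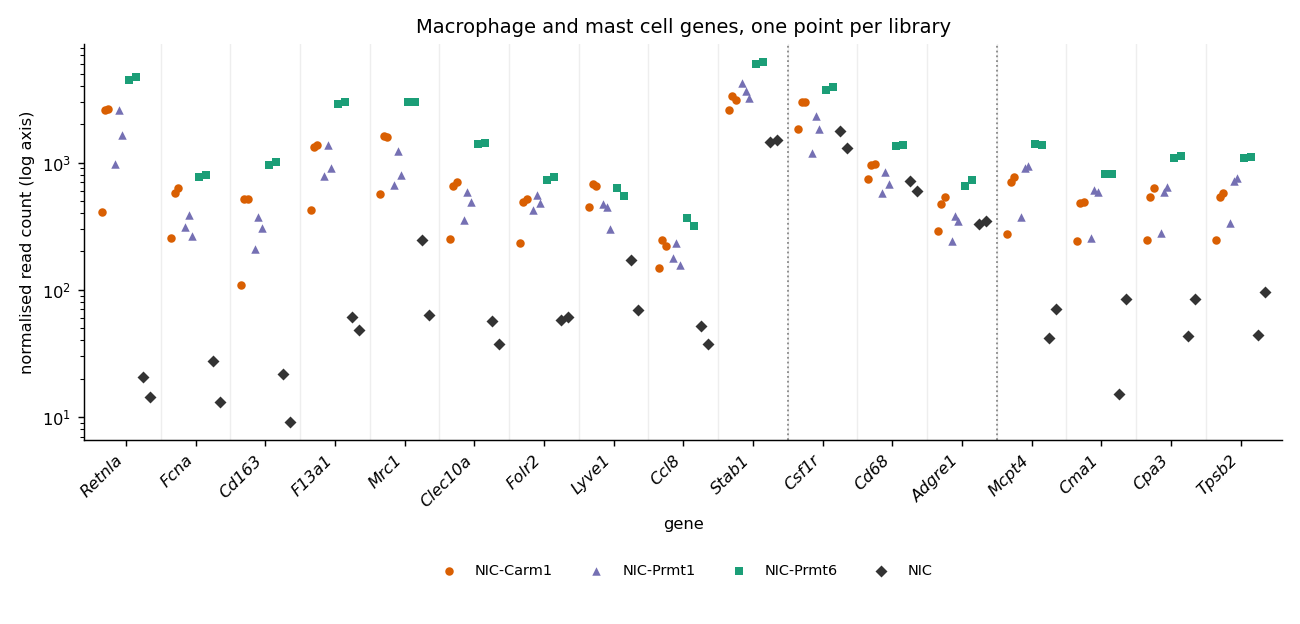
Normalised read counts of alternatively activated macrophage genes (left), general macrophage genes (middle) and mast cell genes (right) in each library, on a log axis, with groups from left to right within each gene. NIC libraries are lowest for the left and right blocks, while Adgre1 of the middle block overlaps between NIC-Carm1 and NIC.

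The rises of alternatively activated macrophage genes were not shown to be particular to NIC-Carm1. Against the mean of NIC-Prmt1 and NIC-Prmt6, a contrast in which 6366 of 15694 genes passed (40.6%), 0 of the 17 alternatively activated macrophage genes were higher in NIC-Carm1 and 1, Stab1, was lower (-0.66 ± 0.11, adjusted p = 0.00135). Retnla, for example, had 409, 2610.4 and 2626 in NIC-Carm1, 974, 2582 and 1638 in NIC-Prmt1 and 4502 and 4686 in NIC-Prmt6, against 20.8 and 14.3 in NIC. The difference between NIC-Carm1 and the other PRMT groups was -0.94 ± 0.57 (adjusted p = 0.209), which did not pass. The mast cell rises were not shown to be particular to NIC-Carm1 either. Of 10 mast cell genes, 1 was higher and 1 lower than in the other PRMT groups (median -0.81), and 0 and 1 on averaging. Of all genes tested, 18.9% were higher and 21.6% lower in that contrast, and 5.66% and 10.3% on averaging.

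Some pericyte genes rose. Of 9 pericyte genes, 3 rose, all of which held on averaging, and Mcam fell (-0.59 ± 0.15, adjusted p = 0.0284, and 0.00315 to 0.151 over the alternatives), a call lost on averaging and without any library but NIC-Carm1 replicate 1. Without NIC-Carm1 replicate 1, 5 pericyte genes rose. All 9 pericyte genes were lower in NIC-Carm1 than in the mean of NIC-Prmt1 and NIC-Prmt6, and 7 on averaging. Of all genes tested, 21.6% were lower in that contrast, and 10.3% on averaging. The list summed to 605, 793 and 763 CPM in NIC-Carm1, against 483 and 467 CPM in NIC. NIC-Prmt1 had 1498, 995 and 980 CPM and NIC-Prmt6 1282 and 1316 CPM. Kcnj8 (chromosome 6, 142564837 to 142571614) and Abcc9, which together encode a potassium channel of pericytes, were both higher. Kcnj8 had 327, 367 and 377 in the NIC-Carm1 libraries, against 113 and 138 in the NIC libraries. Abcc9 had 1206, 1151 and 1238 in the NIC-Carm1 libraries, against 604 and 605 in the NIC libraries. Rgs5, a regulator of G protein signalling, had 1355, 1559 and 1613 in the NIC-Carm1 libraries, against 616 and 712 in the NIC libraries. No NIC library reached a NIC-Carm1 library for any of the 3 genes. The rises were 1.5 ± 0.14, 0.99 ± 0.15 and 1.18 ± 0.14 (adjusted p = 0.000429, 0.00371 and 0.00132). Endothelial genes, by contrast, had 0 of 12 called in either direction by limma (4 at an unadjusted p under 0.05) and by edgeR and 2 by DESeq2, with a median of -0.02, and in fibroblast genes 1 of 12 fell, which was lost without either NIC library, and none rose.

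Single genes outside these lists also rose. Btg2 (chromosome 1, 134074865 to 134079155), an antiproliferative gene that growth factors and p53 induce, had 20699.9, 25869.5 and 26059.7 in the NIC-Carm1 libraries, against 7675 and 8333 in the NIC libraries, a log2 fold change of 1.59 ± 0.18 (adjusted p = 0.000957, and 7.98e-16 to 0.0231 over the alternatives). Pdk4, the kinase that shuts pyruvate out of the mitochondrial acid cycle, had 3533, 3177 and 3258 in the NIC-Carm1 libraries, against 1724 and 1166 in the NIC libraries, and rose by 1.23 ± 0.16. Slc27a1, a fatty acid transporter gene, had 4433, 2941 and 2801 in the NIC-Carm1 libraries, against 1107 and 1675 in the NIC libraries, and rose by 1.28 ± 0.23 (adjusted p = 0.00642, and 0.0649 without NIC replicate 1). The laminin chain gene Lama1 rose by 1.51 ± 0.26, the bone morphogenetic protein gene Bmp3 by 1.23 ± 0.16 and Tenm4, a teneurin of the cell surface, by 1.65 ± 0.16. All but Slc27a1 held in every alternative.

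On the side of the falls, nearly every gene of a heat shock list was lower. The list was compiled for cytosolic chaperones but also holds the mitochondrial chaperone gene Hspd1. These genes encode chaperones that refold proteins, and heat shock factor 1 induces them. Of 14, 13 fell and none rose. All 14 were lower in every NIC-Carm1 library than in both NIC libraries, where 24.5% of all genes tested were. The median log2 fold change was -1.35. Averaging left 10 falls, and leaving out a library left 12 or 13. Summed over the list, they took 11064, 11292 and 11053 CPM in NIC-Carm1 against 30045 and 24306 CPM in NIC. The promoter window of Hspb1 is shown because the small chaperone gene was among the clearest falls and the window holds the core of a heat shock element. The window was read from the RefSeq table (GRCm38.p6, chr5:135887669-135887968, plus strand, 250 bases before to 50 after the start site), and capitals mark 2 matches to GAANNTTC at -117 and -97.
Hspb1: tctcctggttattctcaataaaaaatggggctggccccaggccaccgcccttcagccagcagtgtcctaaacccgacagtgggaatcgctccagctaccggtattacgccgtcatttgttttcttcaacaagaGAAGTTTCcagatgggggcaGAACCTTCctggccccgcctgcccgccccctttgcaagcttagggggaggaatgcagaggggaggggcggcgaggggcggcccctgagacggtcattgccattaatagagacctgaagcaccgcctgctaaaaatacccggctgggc
This motif was searched on both strands, was added after the fall of these genes was seen, and occurs in 7.86% of all 32851 promoter windows.

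Hspb1 had 10646, 10910.3 and 10529 in the NIC-Carm1 libraries, against 47608 and 38560.0 in the NIC libraries, a log2 fold change of -2.0 ± 0.16 (adjusted p = 0.000208, and 7.16e-32 to 0.00883 over the alternatives). The 3 NIC-Carm1 values were close together, and the lower NIC value was well above them. Hsph1 (chromosome 5, 149616843 to 149636498), a nucleotide exchange partner of the Hsp70 chaperones, had 5056, 4207 and 4219 in the NIC-Carm1 libraries, against 19791 and 20693 in the NIC libraries, and fell by 2.18 ± 0.15 (adjusted p = 0.000116). Hsp90aa1, the inducible form of Hsp90, had 26796, 25675 and 26817 in the NIC-Carm1 libraries, against 103936 and 82939.6 in the NIC libraries, and fell by 1.81 ± 0.16. The inducible Hsp70 genes Hspa1a and Hspa1b are near-identical copies whose reads cannot be assigned with certainty, and their values fell by 1.84 ± 0.19 and 1.96 ± 0.21. The co-chaperone genes Bag3 and Dnajb1 and the small chaperone gene Hspb8 fell by 1.38 ± 0.11, 1.09 ± 0.16 and 1.51 ± 0.12. Hspa8, the constitutive Hsp70, fell by 1.33 ± 0.19, which was lost on averaging (adjusted p = 0.0588). The mitochondrial chaperone gene Hspd1 had 7274, 5462 and 5757 in the NIC-Carm1 libraries, against 7687 and 8247 in the NIC libraries, and did not pass (adjusted p = 0.155).

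The heat shock genes were also low in the other PRMT groups, but lower in NIC-Carm1. They summed to 15345, 14911 and 18458 CPM in NIC-Prmt1 and 18057 and 18284 CPM in NIC-Prmt6, each below both NIC sums and above all NIC-Carm1 sums given above. Of the 14 genes, 12 were lower in NIC-Carm1 than in the mean of NIC-Prmt1 and NIC-Prmt6, where 21.6% of all genes tested were lower, and 8 were on averaging, where 10.3% of genes were. Hspb8 had 536, 595 and 592 in NIC-Carm1, 1423, 1075 and 1213 in NIC-Prmt1 and 1577 and 1567 in NIC-Prmt6, against 1669.7 and 1595 in NIC. Hsph1 had 5056, 4207 and 4219 in NIC-Carm1, 5318, 7341 and 7393 in NIC-Prmt1 and 10506 and 10657 in NIC-Prmt6, against 19791 and 20693 in NIC, so all PRMT libraries were below NIC for that gene. The Hspb8 difference from the other PRMT groups was -1.27 ± 0.10 (adjusted p = 5.82e-05). Bag3 differed from them by -1.15 ± 0.09 and Dnajb1 by -0.99 ± 0.13.

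Inflammatory signals fell in part. On a list of 24 chemokines, 9 fell and 2 rose, with a median of -0.78. This list leaves out Pf4, and Ccl8 and Ccl24, which are counted with the macrophage genes, and all 3 of these rose, Ccl24 with the call lost on averaging (0.063). Averaging left 4 falls and 1 rise, and 5 fell without NIC replicate 1. The neutrophil attractants Cxcl1 and Cxcl2 (chromosome 5, 90903899 to 90905938), which bind the same receptor, are neighbouring genes. Their promoter windows are shown together because both fell about as far and both hold the NF-kB motif GGANTTTCC, at -70 in Cxcl1 (chr5:90890995-90891294) and at -96 in Cxcl2 (chr5:90903649-90903948). Both windows are on the plus strand of GRCm38.p6 (RefSeq), the motif was searched on both strands, and capitals mark it.
Cxcl1: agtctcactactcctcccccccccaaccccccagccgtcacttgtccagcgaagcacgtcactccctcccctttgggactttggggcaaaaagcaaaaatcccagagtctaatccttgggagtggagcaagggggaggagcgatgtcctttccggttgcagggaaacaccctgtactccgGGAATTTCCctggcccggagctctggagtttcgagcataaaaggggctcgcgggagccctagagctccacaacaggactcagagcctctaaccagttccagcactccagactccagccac
Cxcl2: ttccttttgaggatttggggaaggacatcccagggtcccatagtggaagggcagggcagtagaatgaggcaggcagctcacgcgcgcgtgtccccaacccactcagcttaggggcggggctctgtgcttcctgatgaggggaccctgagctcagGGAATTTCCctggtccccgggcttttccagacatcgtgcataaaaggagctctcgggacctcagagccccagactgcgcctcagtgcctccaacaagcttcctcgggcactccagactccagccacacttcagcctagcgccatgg
The motif occurs in 1.25% of all promoter windows.

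Cxcl2 had 987, 992 and 1096 in the NIC-Carm1 libraries, against 4795 and 4816 in the NIC libraries, a log2 fold change of -2.23 ± 0.09 (adjusted p = 3.16e-06, and 8.66e-113 to 0.00253 over the alternatives). Cxcl1 had 3439.8, 3487 and 3494 in the NIC-Carm1 libraries, against 14391 and 16951 in the NIC libraries, a log2 fold change of -2.17 ± 0.14 (adjusted p = 0.000112). For both genes the spread within a group was small beside the gap between the groups. Cxcl16, a chemokine that also occurs as a membrane-bound scavenger receptor, and Ccl4, a macrophage product, fell by 1.48 ± 0.15 and 1.29 ± 0.23. The rises on this list were Ccl6, given above, and Ccl9, by 1.47 ± 0.24 (adjusted p = 0.052 on averaging). Against the other PRMT groups, 15 of the 24 chemokines were lower in NIC-Carm1 and 11 on averaging. Of all genes tested, 21.6% were lower in that contrast, and 10.3% on averaging. Cxcl1 differed from the other PRMT groups by -1.09 ± 0.11 and Cxcl2 by -0.49 ± 0.07 (adjusted p = 0.000158 and 0.000794).

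Cytokines went the same way, with 9 of 21 lower and none higher (median -1.02). Averaging left 5 falls, and 6 were lower without NIC replicate 1. Lif (chromosome 11, 4257568 to 4272514), a cytokine of the interleukin-6 family that mammary epithelium makes, had 3029.9, 1589.8 and 1565 in the NIC-Carm1 libraries, against 8377 and 9690.1 in the NIC libraries, and fell by 2.2 ± 0.26 (adjusted p = 0.00129). Its relative Il11 had 31.5, 16.4 and 25.2 in the NIC-Carm1 libraries, against 519.7 and 159 in the NIC libraries, and fell by 3.55 ± 0.47. The granulocyte growth factor gene Csf3 had 942, 452 and 459.7 in the NIC-Carm1 libraries, against 2624 and 5468 in the NIC libraries, and fell by 2.7 ± 0.36, and the interleukin-1 antagonist gene Il1rn fell by 1.81 ± 0.24. In each of these 4 genes every NIC-Carm1 library was below both NIC libraries, and the calls held in every alternative. The interleukin-12 subunit gene Il12b fell by 3.71 ± 0.74 (adjusted p = 0.0109), a call that was lost without NIC replicate 1 (0.0657) or 2 (0.0636) and with only the compared groups fitted (0.0512). Of 18 genes of the NF-kB pathway itself, 6 fell and none rose. Averaging left 2, the subunit gene Nfkb1 (-1.04 ± 0.13) and the target Tnfaip2 (-0.82 ± 0.12). Without NIC replicate 1 or 2 there were 3 and without NIC-Carm1 replicate 1 there were 11.

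Growth factors that activate the EGF receptor also fell. Of 10 EGF receptor ligands, 5 fell and none rose, 4 on averaging. Epgn (chromosome 5, 91027517 to 91035212), epithelial mitogen, had 40.5, 28.8 and 32 in the NIC-Carm1 libraries, against 463 and 274 in the NIC libraries, a log2 fold change of -3.38 ± 0.27 (adjusted p = 0.000209). Hbegf, the heparin-binding ligand, had 862, 813 and 825 in the NIC-Carm1 libraries, against 3565 and 2534 in the NIC libraries, and fell by 1.85 ± 0.15 (adjusted p = 0.000208). No NIC-Carm1 library of either gene came near the NIC values. Tgfa fell by 1.18 ± 0.15 and Areg, the main ligand of ductal growth, by 0.74 ± 0.09. Ereg fell by 3.21 ± 0.57, which was lost on averaging (0.0588) and without NIC replicate 1 (0.0647). Of these ligands, Epgn, Hbegf, Areg and Ereg were lower in NIC-Carm1 than in the other PRMT groups, with differences of -1.89 ± 0.22, -1.61 ± 0.12, -1.0 ± 0.07 and -2.5 ± 0.46.

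The receptors of these ligands were measured as well. Erbb2 had 22031, 22403 and 21995 in the NIC-Carm1 libraries, against 9343 and 15110.4 in the NIC libraries. All NIC-Carm1 libraries were above both NIC libraries, by 0.90 ± 0.27 (adjusted p = 0.048), but the call was lost on averaging (0.183), with the NIC-Carm1 pair alone averaged (0.112), with edgeR (0.0676), without NIC-Carm1 replicate 1 (0.064), 2 (0.116) or 3 (0.109) and without NIC replicate 1 (0.314). Egfr fell by 0.49 ± 0.09, which was lost on averaging (0.0943) and without NIC replicate 1 (0.0533) or 2 (0.0528), and Erbb3 had 6237, 6044 and 5797 in the NIC-Carm1 libraries, against 7367 and 6408 in the NIC libraries, and did not pass. Grb7, an adaptor gene close to Erbb2 in the genome that is often co-amplified with it, had 1426, 1516 and 1461 in the NIC-Carm1 libraries, against 2787 and 2539 in the NIC libraries, and fell by 0.86 ± 0.12 (adjusted p = 0.00243, and 1.46e-08 to 0.0382 over the alternatives). Of 8 genes on the list of receptors and their regulators, 1 rose and 2 fell, and only the fall of Grb7 held on averaging.

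Genes that ATF4 switches on when amino acids are short or proteins misfold were lower as well. Of 22, 12 fell and none rose (median -0.68). Averaging left 5, and leaving out a library left 9 to 13. The window of Chac1 is shown because it was the deepest fall of the list and holds the ATF4 element. It was taken from RefSeq (GRCm38.p6, chr2:119350992-119351291, plus strand), and capitals mark the match to TGATGNAAN, which lies on the minus strand and starts at -194 in the printed direction.
Chac1: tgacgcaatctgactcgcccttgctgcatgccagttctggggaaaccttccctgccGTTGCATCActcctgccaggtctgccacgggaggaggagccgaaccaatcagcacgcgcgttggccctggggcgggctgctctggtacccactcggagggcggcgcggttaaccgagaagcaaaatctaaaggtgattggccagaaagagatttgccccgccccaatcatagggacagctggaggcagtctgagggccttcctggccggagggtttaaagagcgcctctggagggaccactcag
The motif occurs on either strand of 3.95% of all windows. Chac1 (chromosome 2, 119351242 to 119354326), an enzyme that degrades glutathione, had 91.2, 51 and 53.3 in the NIC-Carm1 libraries, against 1103 and 1045 in the NIC libraries, a log2 fold change of -4.07 ± 0.30 (adjusted p = 0.000129, and 1.21e-44 to 0.0067 over the alternatives). The NIC-Carm1 libraries were far below both NIC libraries and overlapped with the other PRMT groups.

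Mthfd2, a mitochondrial folate enzyme, had 121, 144 and 134 in the NIC-Carm1 libraries, against 619.9 and 529 in the NIC libraries, and fell by 2.1 ± 0.16 (adjusted p = 0.00016). The cystine importer gene Slc7a11 had 66.5, 79 and 85.3 in the NIC-Carm1 libraries, against 472 and 291 in the NIC libraries, and fell by 2.26 ± 0.24. Ddit4, an inhibitor of mTOR signalling, had 3325, 3408 and 3365 in the NIC-Carm1 libraries, against 8685 and 9702 in the NIC libraries, and fell by 1.45 ± 0.12, and the asparagine synthetase gene Asns by 0.84 ± 0.13. Groups did not overlap in any of the 4 genes, and the calls held in every alternative. Atf4 itself fell by 0.98 ± 0.17, which was lost on averaging (adjusted p = 0.0638) and without NIC replicate 1 (0.0574). Chac1 and Mthfd2 were not shown to differ between NIC-Carm1 and the other PRMT groups (-0.02 ± 0.24 and -0.20 ± 0.13, adjusted p = 0.954 and 0.23), while Asns was higher in NIC-Carm1 than in them (0.42 ± 0.10, adjusted p = 0.00917). Of 21 aminoacyl tRNA synthetase genes, which are in part ATF4 targets, 7 fell and none rose, and none passed on averaging (7 at an unadjusted p under 0.05). Leaving out NIC-Carm1 replicate 1 gave 11 falls and leaving out any other library 2 or 3.

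**Figure D4:**
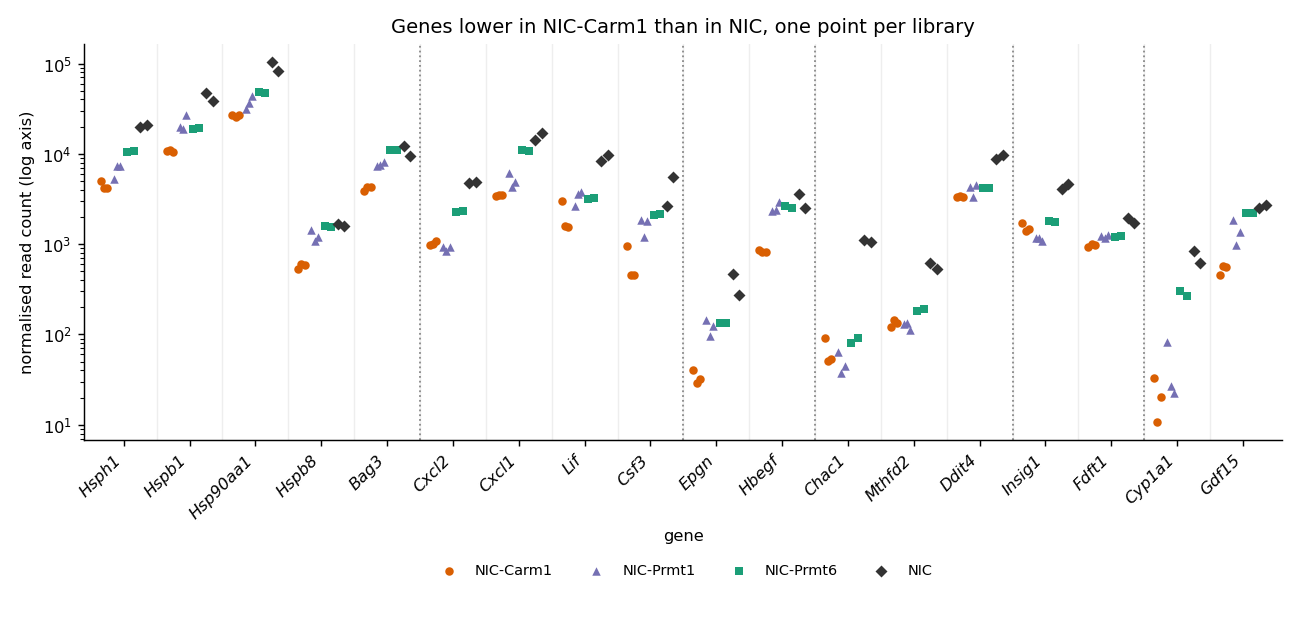
Normalised read counts of genes that fell, in each library on a log axis, with groups from left to right within each gene. From the left, blocks hold heat shock genes, chemokines and cytokines, EGF receptor ligands, ATF4 targets, cholesterol synthesis genes, and Cyp1a1 with Gdf15, and in each gene every NIC-Carm1 value is below both NIC values.

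The pathway that makes cholesterol is switched on by SREBP2 when sterols are scarce. Of its 23 genes in the table, 15 fell and none rose (median -0.66). Averaging left 5, and 6 fell without NIC replicate 1. Insig1 (chromosome 5, 28071412 to 28078662), which holds the SREBP proteins back and is itself one of their targets, had 1702, 1389.9 and 1485 in the NIC-Carm1 libraries, against 4067 and 4613 in the NIC libraries, and fell by 1.51 ± 0.10 (adjusted p = 0.000117, and 6.68e-33 to 0.00752 over the alternatives). The squalene synthase gene Fdft1 had 937, 993 and 975 in the NIC-Carm1 libraries, against 1968 and 1736 in the NIC libraries, and fell by 0.93 ± 0.09. Fdps, Idi1 and Cyp51, which act before and after that step, fell by 0.89 ± 0.12, 0.79 ± 0.11 and 1.17 ± 0.17. Every NIC-Carm1 library of these 5 genes was below both NIC libraries. Hmgcs1, an early enzyme of the pathway, had 1289.7, 1044 and 1099.7 in the NIC-Carm1 libraries, against 2228 and 2313 in the NIC libraries, and fell by 0.99 ± 0.17 (adjusted p = 0.00531, but 0.0575 on averaging). Its window is shown because it holds the sterol element motif TCACNCCAC, marked in capitals at -137 (RefSeq, GRCm38.p6, chr13:119690101-119690400, plus strand, both strands searched).
Hmgcs1: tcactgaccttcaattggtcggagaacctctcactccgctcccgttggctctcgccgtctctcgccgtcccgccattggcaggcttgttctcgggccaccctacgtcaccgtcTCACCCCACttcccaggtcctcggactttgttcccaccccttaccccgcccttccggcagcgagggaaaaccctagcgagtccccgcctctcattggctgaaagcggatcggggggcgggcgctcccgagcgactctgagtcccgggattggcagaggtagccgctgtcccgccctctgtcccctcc
The motif occurs in 1.24% of all windows, and the window of Insig1 held no match. Of 16 fatty acid synthesis genes, 4 fell and 1 rose, with a median of 0.40 that lies above 0. Averaging left 1 fall and no rise, and 1 fell without NIC replicate 1 or NIC-Carm1 replicate 2 or 3 and 2 without NIC replicate 2. The desaturase gene Scd2 had 5904, 6594 and 6631 in the NIC-Carm1 libraries, against 17626 and 14562 in the NIC libraries, and fell by 1.33 ± 0.15 (adjusted p = 0.000957), while Gpam, which starts triglyceride synthesis, rose by 0.84 ± 0.13 (0.0553 on averaging).

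Cyp1a1 fell furthest of the genes named here. Cyp1a1 (chromosome 9, 57687928 to 57703824) encodes a cytochrome that oxidises aromatic compounds and is the standard target of the aryl hydrocarbon receptor. The window is shown because it holds the core GCGTG of that receptor's element, in capitals at -54 (RefSeq, GRCm38.p6, chr9:57697363-57697662, plus strand, both strands searched). This window lies within the annotated span of the gene, not before its outer end.
Cyp1a1: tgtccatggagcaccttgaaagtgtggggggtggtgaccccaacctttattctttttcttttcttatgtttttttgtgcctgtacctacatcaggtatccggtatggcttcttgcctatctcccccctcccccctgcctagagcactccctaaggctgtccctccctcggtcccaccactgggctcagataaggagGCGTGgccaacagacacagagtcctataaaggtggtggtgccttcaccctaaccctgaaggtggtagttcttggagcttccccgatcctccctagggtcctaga
The core is short and occurs in 32.4% of all windows. Cyp1a1 had 32.7, 10.7 and 20.4 in the NIC-Carm1 libraries, against 838 and 616 in the NIC libraries, a log2 fold change of -5.15 ± 0.55 (adjusted p = 0.000721, and 1.68e-21 to 0.0153 over the alternatives). NIC-Prmt1 had 82.7, 26.9 and 22.7 and NIC-Prmt6 302 and 267, so NIC-Carm1 overlapped with NIC-Prmt1 and was below NIC-Prmt6. Of 9 targets of the receptor, 3 fell and none rose, and 5 fell without NIC-Carm1 replicate 1. Averaging left Cyp1a1 and Tiparp, the feedback inhibitor of the receptor, which had 4089.7, 3630.2 and 3818 in the NIC-Carm1 libraries, against 8770.03 and 7939 in the NIC libraries, and fell by 1.12 ± 0.16.

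Genes of the oxidative stress regulator NRF2 had 5 of 17 lower and 1 higher, 4 and 0 on averaging. The regulator gene Nfe2l2 had 4027, 3686 and 3738 in the NIC-Carm1 libraries, against 7729.6 and 6767 in the NIC libraries, and fell by 0.92 ± 0.11. The haem oxygenase gene Hmox1 had 2204, 2223 and 1973 in the NIC-Carm1 libraries, against 14427 and 7277 in the NIC libraries, and fell by 2.27 ± 0.30 (adjusted p = 0.00208), and the thioredoxin reductase gene Txnrd1 fell by 0.78 ± 0.11. Among targets of p53, 11 of 22 fell and 2 rose, of which 2 falls and 1 rise, Btg2, held on averaging, and 2 fell without NIC replicate 1, 6 without NIC replicate 2 and 7 without NIC-Carm1 replicate 3. The cell cycle inhibitor gene Cdkn1a (chromosome 17, 29090979 to 29100722) had 2959, 3602 and 3336 in the NIC-Carm1 libraries, against 9077 and 8651 in the NIC libraries, and fell by 1.43 ± 0.10 (adjusted p = 0.000116). Gdf15, a secreted stress signal of the TGF-beta family, had 459.5, 569 and 555 in the NIC-Carm1 libraries, against 2511 and 2690.02 in the NIC libraries, and fell by 2.3 ± 0.21. Every NIC-Carm1 library of both genes was below every other library of the study. In glycolysis and hypoxia genes, 5 of 20 fell and none rose. The 3 that held on averaging were the glucose transporter gene Slc2a1 (-1.16 ± 0.16), the phosphofructokinase gene Pfkp (-0.90 ± 0.10) and the oxygen sensor gene Egln3 (-1.14 ± 0.19). Without NIC-Carm1 replicate 1 there were 9 falls, and without any other library 3.

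Of 9 urokinase system genes, 3 fell and 1 rose, and averaging left 2 falls. The urokinase gene Plau (chromosome 14, 20836662 to 20843388), which starts plasmin formation at the cell surface, had 1031, 1009.9 and 1233 in the NIC-Carm1 libraries, against 2283 and 2343 in the NIC libraries, and fell by 1.09 ± 0.10 (adjusted p = 0.000429). Its receptor gene Plaur had 694, 759 and 792 in the NIC-Carm1 libraries, against 3631 and 2384 in the NIC libraries, and fell by 1.98 ± 0.18. Both were lower in each NIC-Carm1 library than in any other library of the study. Of 15 Notch pathway genes, 6 fell and none rose. Averaging left 1, the ligand gene Dll4 (-0.87 ± 0.10), and there were 2 falls without NIC replicate 1 and 3 without NIC-Carm1 replicate 2 or 3. Of 27 TGF-beta and BMP genes, 5 fell and 1 rose, and 3 fell on averaging and without NIC replicate 1. The inhibitor gene Smad7 fell by 1.32 ± 0.17, and this call and that of Dll4 held in every alternative. Outside these lists, the POU factor gene Pou3f1 fell by 3.51 ± 0.35, the epidermal lipoxygenase gene Aloxe3 by 2.92 ± 0.26 and the AP-1 subunit gene Fosl1 by 2.67 ± 0.31. Of 20 immediate early genes, 7 fell and 3 rose. Averaging left 1 fall, Fosl1, and 1 rise, Btg2, and there were 2 and 4 falls without NIC replicates 1 and 2 and 3 without NIC-Carm1 replicate 2 or 3. Fos had 60055, 97768 and 97505 in the NIC-Carm1 libraries, against 53398 and 49934 in the NIC libraries. Egr1 had 31664, 53122 and 50859.6 in the NIC-Carm1 libraries, against 43823 and 37139 in the NIC libraries, and neither gene passed (adjusted p = 0.0611 and 0.749).

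Schwann cell and neural genes were lower, with 7 of 12 called down and none up (median -1.23). Averaging left 3, and without NIC replicate 1 or 2 there were 2. The myelin gene Mbp had 3504, 5957 and 5803 in the NIC-Carm1 libraries, against 12622 and 13301 in the NIC libraries. No NIC-Carm1 library came near the NIC values, and the fall of 1.39 ± 0.24 (adjusted p = 0.00569) held in every alternative. Dscam (chromosome 16, 96587452 to 97171113), an adhesion gene of neurons, had 92.4, 32.1 and 34.9 in the NIC-Carm1 libraries, against 412 and 398 in the NIC libraries, and fell by 3.08 ± 0.44 (adjusted p = 0.00274). It also set NIC-Carm1 apart from NIC-Prmt1, with 483, 1088 and 579, and NIC-Prmt6, with 727 and 727. The list as a whole summed to 731, 926 and 907 CPM in NIC-Carm1 against 1245 and 1397 CPM in NIC, and the part of nerve tissue in these falls was not tested.

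Genes of the luminal epithelium were lower in part. Of 13 luminal epithelial genes, 7 fell and none rose. Averaging left 1, the transcription factor gene Ovol1 (-1.89 ± 0.30), and there were 4 falls without NIC-Carm1 replicate 2 or 3 and 3 without NIC replicate 1. The adhesion gene Epcam had 25552, 24663 and 25644 in the NIC-Carm1 libraries, against 47439 and 50031 in the NIC libraries, and the cadherin gene Cdh1 had 11494, 11433 and 11539 in the NIC-Carm1 libraries, against 22362 and 17826 in the NIC libraries. Both were lower in every NIC-Carm1 library, with log2 fold changes of -0.95 ± 0.16 and -0.80 ± 0.12, and both calls were lost on averaging (adjusted p = 0.0671 and 0.052). Of 14 luminal progenitor and alveolar genes, 1 rose and 3 fell, and of 14 hormone-sensing luminal genes, 1 rose and 1 fell. Of all genes tested, 6.65% rose and 9.36% fell. Averaging left 1 fall in each of these lists and no rise, and without NIC-Carm1 replicate 1 the hormone-sensing list had 5 rises. Basal and myoepithelial genes had 0 of 13 called by limma (5 at an unadjusted p under 0.05), 0 by edgeR and 1 by DESeq2. Milk genes had 0 of 17 called by all 3 tools and 0 at an unadjusted limma p under 0.05. They summed to 62622, 21570 and 21989 CPM in NIC-Carm1, against 19185 and 26916 CPM in NIC. Without NIC-Carm1 replicate 1, 0 milk genes rose and 1 fell. Replicate 1 lay far from replicates 2 and 3, and the lack of calls does not show equal milk RNA. The oestrogen and progesterone receptor genes Esr1 and Pgr did not pass (0.29 ± 0.31 and 0.06 ± 0.17).

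Of genes for DNA replication, 8 of 25 rose and the sliding clamp gene Pcna fell. The fall of Pcna (-0.35 ± 0.08, adjusted p = 0.0187, and 0.000632 to 0.124 over the alternatives) was lost without NIC-Carm1 replicate 2 and without either NIC library. No replication gene passed on averaging (10 at an unadjusted p under 0.05), and leaving out any library but NIC-Carm1 replicate 1 left 0 to 2 rises. Of 24 mitosis genes, 0 were called by limma (8 at an unadjusted p under 0.05), 0 by edgeR and 2 by DESeq2. Even so, 22 had every NIC-Carm1 library above both NIC libraries, where 23.4% of all genes tested did. The median log2 fold change of that list was 0.59. Against the other PRMT groups, 24 of 24 mitosis genes and 23 of 25 replication genes were higher in NIC-Carm1, where 18.9% of all genes tested were higher, and 18 and 13 were on averaging, where 5.66% of genes were.

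Ribosomal protein genes fell together in small steps. Of 78 cytosolic ribosomal protein genes, 58 fell and none rose, with a median of -0.49. All 78 were lower in each NIC-Carm1 library than in both NIC libraries, where 24.5% of all genes tested were. None passed on averaging (61 at an unadjusted p under 0.05), 5 and 9 passed without NIC-Carm1 replicates 2 and 3, and 2 without either NIC library. Upper-quartile rescaling left 39. Splicing regulators, some of which CARM1 methylates, had 12 of 27 lower and 1 higher. Hnrnpc (-0.87 ± 0.10), Tra2a (-1.03 ± 0.14) and Tra2b (-0.79 ± 0.10) held on averaging. There were 7 falls without NIC-Carm1 replicate 2 or 3 and 3 without NIC replicate 1. Known partners and substrates of CARM1 had 2 of 20 higher and 3 lower, near the shares of all genes tested (6.65% and 9.36%). None passed on averaging (6 at an unadjusted p under 0.05), and without NIC replicate 1 there were 1 and 0. Smarcc1, a chromatin remodeller subunit that CARM1 methylates, was among the rises, with 2560.2, 2269 and 2236 in the NIC-Carm1 libraries, against 1879 and 1916 in the NIC libraries (0.31 ± 0.08, adjusted p = 0.0348, and 0.00889 to 0.153 over the alternatives), with the call lost without any library but NIC-Carm1 replicate 1.

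**Figure D5:**
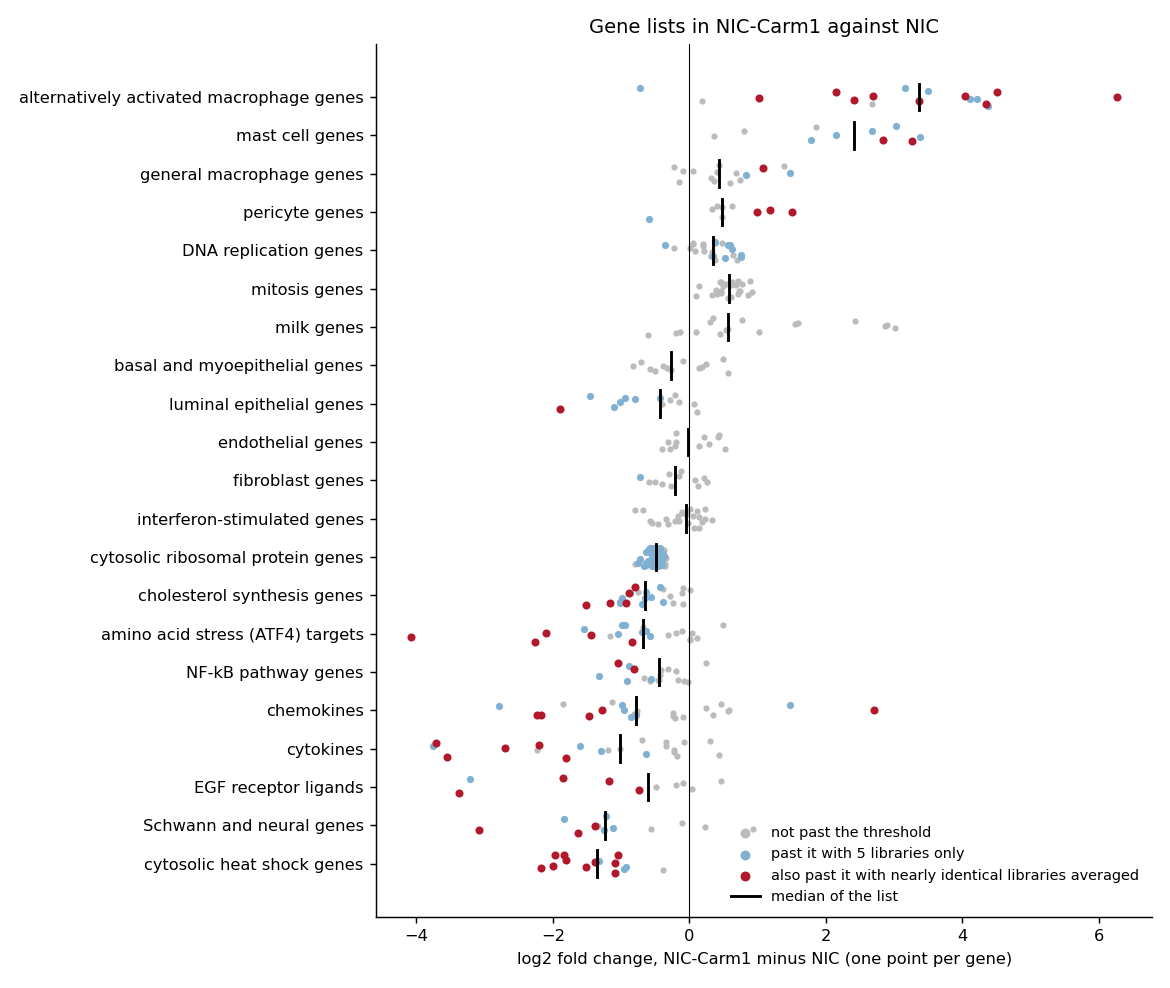
Log2 fold changes, NIC-Carm1 minus NIC, of the members of 21 gene lists, a point per gene, with the median of each list as a bar. Red points also passed with nearly identical libraries averaged and blue points only with all libraries, so heat shock genes (10 red of 14) and ribosomal protein genes (0 red of 78) differ in what survives averaging.

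Some lists with 0 or 1 call against NIC had most of their members called against the other PRMT groups. Of 25 interferon-stimulated genes, 0 differed from NIC by limma (5 at an unadjusted p under 0.05), 0 by edgeR and 4 by DESeq2 (median -0.05). Against the mean of NIC-Prmt1 and NIC-Prmt6, 22 were higher, where 18.9% of all genes tested were, and 13 on averaging, where 5.66% were. All 12 fibroblast genes and all 12 endothelial genes were lower in NIC-Carm1 than in the other PRMT groups, also on averaging. Of all genes tested, 21.6% were lower in that contrast, and 10.3% on averaging. Fibroblast genes summed to 4847, 5182 and 5277 CPM in NIC-Carm1, 10092, 7624 and 8539.9 CPM in NIC-Prmt1 and 20119.5 and 20136 CPM in NIC-Prmt6, against 4556 and 5573 CPM in NIC. These stromal sums moved with the contrast to the other PRMT groups but not with that to NIC, and their part in the differences from NIC-Prmt1 and NIC-Prmt6 was not tested.

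Some genes differed both from NIC and, by at least 1 on the log2 scale in the same direction, from the mean of the other PRMT groups, in contrasts that share the NIC-Carm1 libraries. Tenm4 had 899, 757 and 711 in NIC-Carm1, 365, 425 and 321 in NIC-Prmt1 and 249.9 and 259 in NIC-Prmt6, against 222 and 279.5 in NIC. Cited4, a coactivator-binding protein, had 1357, 1422 and 1288 in NIC-Carm1, 586, 584 and 607 in NIC-Prmt1 and 644 and 575 in NIC-Prmt6, against 700.2 and 489 in NIC. For both genes the lowest NIC-Carm1 library was above every other library of the study. Slc34a2, a phosphate transporter gene of secretory epithelium, had 1488, 853 and 839.8 in NIC-Carm1, 289, 355 and 388 in NIC-Prmt1 and 198 and 170.3 in NIC-Prmt6, against 302 and 419 in NIC, and its call against NIC was lost without NIC replicate 1 (0.0566). Ehhadh, an enzyme of peroxisomal fatty acid oxidation, rose by 0.83 ± 0.11 against NIC and was 1.09 ± 0.09 above the other PRMT groups. Pdk4 was 1.58 ± 0.13 above them, with 505 and 525 in NIC-Prmt6 as the lowest values of the study. Among the falls, Dscam, Cyp1a1, Epgn, Pou3f1 and Cdh17 differed from the other PRMT groups by -3.87 ± 0.35, -2.36 ± 0.44, -1.89 ± 0.22, -1.81 ± 0.28 and -1.49 ± 0.37.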

How the data were processed

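Poly-A RNA of 10 libraries had been sequenced. The deposited values are a signal that the authors made, read counts per gene divided by 1 size factor per library, and the submitters' processing notes name TopHat2 2.0.10, HTSeq 0.6.0, DESeq 1.18.0 and mm10. The sources used here give no annotation, strand setting or filter, so overlapping and antisense genes cannot be told apart. The values were analysed as log2(value + 1) with limma 3.58.1 (R 4.3.3), as group means over all 10 libraries (6 residual degrees of freedom), on genes that reached a value of 10 in 2 or more libraries, and Benjamini-Hochberg adjusted p at most 0.05 was called. Fold changes on that scale understate changes of low genes. The contrast code was tested on simulated data.

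Dividing each column by its smallest step gave whole reads for 100% of values (tolerance 0.01). On these reads, the number of genes changed in NIC-Carm1 against NIC was 2456 with edgeR 4.0.16 and 3216 with DESeq2 1.42.0. CPM were computed from them. The members, the gene lists and the rule for named genes were chosen with earlier results of these data known. Named genes are PRMT genes, the largest changes that also pass on averaging with a mean of at least 50 or 2000, the leading called members of each list with the defining immune and epithelial markers, the 6 rises and 6 falls that differ most from the other PRMT groups, and the genes that set NIC-Carm1 replicate 1 apart. Some of them are not reported here. Names and coordinates came from RefSeq (GRCm38.p6), which matched 14980 of the 15694 genes, and promoter windows from the same assembly.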

Additional observations from a re-analysis of the deposited data

Results flagged for a closer look

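The 11 genes given here were picked partly because they passed a limma contrast of NIC-Carm1 with the mean of the other PRMT groups. The conditions were an adjusted p of at most 0.05 and a difference of at least 1 on the log2 scale. Passing that contrast is therefore no further result. It called 6366 of 15694 genes (40.6%), and 52 rises and 207 falls against NIC also met both conditions in the same direction. Values are the NIC-Carm1 effect minus the mean effect of NIC-Prmt1 and NIC-Prmt6, on the log2 scale, and the NIC libraries cancel in them. The difference was 1.36 for Tenm4, 2.02 for Slc34a2, 1.58 for Pdk4, 1.17 for Cited4 and 1.09 for Ehhadh, all higher in NIC-Carm1. It was 1.04 for Fgd1, a guanine nucleotide exchange factor gene, whose call against NIC was lost without NIC replicate 1 (adjusted p = 0.0646). Lower in NIC-Carm1 were Dscam with -3.87, Cyp1a1 with -2.36, Epgn with -1.89, Pou3f1 with -1.81 and Cdh17, an intestinal cadherin gene, with -1.49. These 11 are among the largest changes against NIC that also passed this contrast, so they describe the ends of the list and not its middle.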

How the results depend on the processing

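Of the 2513 genes changed in NIC-Carm1 against NIC (1044 higher, 1469 lower), averaging the nearly identical libraries kept 341 (89 and 252), and averaging the NIC-Carm1 pair alone, an alternative chosen after seeing the data, gave 1054 (367 and 687). With only the NIC-Carm1 and NIC libraries fitted there were 1441 (494 and 947). Leaving out a library gave between 708 (313 higher, 395 lower, without NIC replicate 1) and 3384 (1487 and 1897, without NIC-Carm1 replicate 1), and 1053 without NIC-Carm1 replicate 2, 1078 without replicate 3 and 1364 without NIC replicate 2. Averaging leaves fewer libraries and 4 residual degrees of freedom, and otherwise the cause was not tested. TMM, the pseudocounts, the filters, edgeR and DESeq2 kept these counts within 1.5 times. Against the mean of the other PRMT groups, the count was 2485 on averaging (881 higher, 1604 lower). Of 253 named genes that were called, averaging kept 94 and leaving out NIC replicate 1 kept 125, and none changed direction under any alternative.

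With the replicate number as a block, 1667 genes changed in NIC-Carm1 against NIC, 632 of them higher. Whether the numbers pair the libraries could not be told. Deviations of the 2 same-numbered pairs correlated at -0.0577 and -0.0548 across genes. With 2 NIC libraries, however, their deviations mirror each other, and NIC-Carm1 replicates 2 and 3 are nearly identical, so these values cannot decide it. The effect of sequencing depth on genes with few reads was not tested.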

Other observations

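Further gene groups were called in part, where 6.65% of all genes tested rose and 9.36% fell. Of 12 genes of the PRMT family and its partners, 1 rose, which was Carm1, and 2 fell. None passed on averaging (5 at an unadjusted p under 0.05). Prmt6 had 329, 224 and 239 in NIC-Carm1, against 387 and 451 in NIC (-0.68 ± 0.19, limma adjusted p = 0.0346, and 0.00656 to 0.187 over the alternatives), and the call was lost without any library but NIC-Carm1 replicate 1. Riok1, a kinase that competes for binding to PRMT5, had 595, 578 and 546 in NIC-Carm1, against 936 and 849 in NIC (-0.64 ± 0.11, adjusted p = 0.00593, and 1.52e-05 to 0.0707 over the alternatives), with the call lost without NIC replicate 1 (0.0552). Of 34 proteasome genes, 9 fell and none rose, and of 60 respiratory chain genes, 8 fell and none rose. No gene of either list passed on averaging (10 and 11 at an unadjusted p under 0.05), and leaving out any library but NIC-Carm1 replicate 1 left 0 or 1 of the proteasome falls and 0 of the others. Genes of T cells (11), B cells (10) and MHC class II (9) gave no call with limma, edgeR or DESeq2, and 1, 0 and 0 of them were at an unadjusted limma p under 0.05. Class II genes summed to 582, 959 and 964 CPM in NIC-Carm1, against 981 and 794 CPM in NIC.

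The milk gene Wap and the fatty acid binding protein gene Fabp3 were among those that set NIC-Carm1 replicate 1 apart, with 5937 and 3329 there. In replicates 2 and 3 of the group, Wap had 62.5 and 55.3 and Fabp3 24.7 and 30.1.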
